A study of Mus musculus with 6 samples.

Results

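Collagens are triple-helical proteins of the extracellular matrix, and each of their chains is encoded by a gene of its own. The genes described here are all those listed under a symbol made of Col, a number, a and a second number. There were 44 of them among the 30631 genes listed in each library. By the type number of the chain, 11 belonged to the fibrillar class and 6 to type IV, the basement membrane class. Another 9 belonged to the fibril-associated class and 18 to other types. The threshold of 10 or more in 3 or more libraries was met by 38 of the 44, and these were the members tested. The other 6 were Col4a3, Col19a1, Col6a4, Col6a5, Col6a6 and Col28a1.

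Fibrillar collagens are made as procollagens, folded in the endoplasmic reticulum, trimmed outside the cell and packed into cross-linked fibrils that bear tension. Type IV chains form the sheet-like network of basement membranes instead. Fibril-associated collagens sit on the surface of fibrils and link them to other matrix, while type VI forms beaded filaments near cells. The sinoatrial node of the adult heart is known for its dense collagen matrix between pacemaker cells, much of it made by fibroblasts.

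The samples were mouse embryonic stem cells of genotype Shox2-/- (3 libraries) and wild type, WT (3 libraries), differentiated into sinoatrial node-like cardiomyocytes. Shox2 is a homeodomain transcription factor needed for development of the node. In both groups, stem cells were expanded on feeder layers of mouse embryonic fibroblasts, differentiated as hanging drops, and sorted for the surface protein CD166 (encoded by Alcam) at stage 7+1 days. RNA sequencing of total RNA from the sorted cells asked which genes depend on Shox2. All 3 titles labelled Shox2-/- carry the prefix J2, whereas the titles labelled WT carry 3 different prefixes. What the prefixes stand for is not stated, and the genotype cannot be told apart from it. The sources used here do not describe the allele. Separate cultures are not named for the libraries of a group, and the p-values therefore reflect only the spread among these libraries, some of which may be technical.

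The promoters of 3 members are shown because they belong to the 2 classes that the comparison turns on. Col1a2 and Col3a1 encode fibrillar chains whose levels were lower in every library labelled Shox2-/-, and Col4a1 encodes a network chain whose groups overlapped. The sequences are those of RefSeq on GRCm38.p6, from 250 bases before to 50 bases after the annotated gene start, written 5′ to 3′ on the gene's own strand. Capitals mark the CCAAT motif, the TATAAA motif and the GGGCGG motif, each searched on both strands, so that their reverse complements are in capitals too. The Col1a2 promoter lies at chr6:4505368-4505667 on the plus strand, the Col3a1 promoter at chr1:45311288-45311587 on the plus strand and the Col4a1 promoter at chr8:11312777-11313076 on the minus strand. The fourth sequence is the stretch of 78 bases, chr8:11312777-11312854 on the plus strand, where the promoter windows of Col4a1 and Col4a2 overlap.
Col1a2: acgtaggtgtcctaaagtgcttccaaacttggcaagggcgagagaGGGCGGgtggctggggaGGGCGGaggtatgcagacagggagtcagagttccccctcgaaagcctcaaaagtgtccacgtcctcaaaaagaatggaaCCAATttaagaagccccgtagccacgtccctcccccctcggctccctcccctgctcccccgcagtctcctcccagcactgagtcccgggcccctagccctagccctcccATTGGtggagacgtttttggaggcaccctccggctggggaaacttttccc
Col3a1: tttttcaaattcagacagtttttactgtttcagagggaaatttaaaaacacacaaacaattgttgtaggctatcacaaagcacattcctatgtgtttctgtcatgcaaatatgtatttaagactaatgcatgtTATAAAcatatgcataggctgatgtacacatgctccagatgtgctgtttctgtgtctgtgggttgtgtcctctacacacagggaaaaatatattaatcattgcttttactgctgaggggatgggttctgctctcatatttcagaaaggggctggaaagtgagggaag
Col4a1: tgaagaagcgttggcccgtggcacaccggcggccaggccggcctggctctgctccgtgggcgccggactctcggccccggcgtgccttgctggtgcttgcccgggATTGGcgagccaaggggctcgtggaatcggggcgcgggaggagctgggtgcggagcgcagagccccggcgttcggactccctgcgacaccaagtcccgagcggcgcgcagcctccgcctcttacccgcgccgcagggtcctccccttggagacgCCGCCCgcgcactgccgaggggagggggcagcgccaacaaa
Col4a1 and Col4a2 overlap: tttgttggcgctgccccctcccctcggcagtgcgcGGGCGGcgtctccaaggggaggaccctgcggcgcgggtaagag

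The Col3a1 window held 37.7% G and C and 0 CpG, and the Col1a2 window 61% and 13 CpG. The Col4a1 window held 74% and 37 CpG. The 2 fibrillar promoters thus differed more from each other in G and C content than the Col1a2 promoter did from that of Col4a1. The RefSeq table held 38 promoters for 35 of the 44 members. GGGCGG occurred in 60.5% of these 38, against 35.7% of all 32851 promoters of the same length. CCAAT occurred in 34.2% of the collagen promoters and 37.4% of all promoters, and TATAAA in 13.2% of the collagen promoters and 13.6% of all promoters. The median G and C content was 59.8% among collagen promoters and 52.7% among all promoters. These letters describe the windows and were not related to binding of any factor.

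Each library had 13504683 to 34650564 reads assigned to genes, recovered here from the deposited values, which are read counts divided by a size factor for each library and are called normalized counts below. Library 1 of each group was the shallowest, at 13782017 reads labelled Shox2-/- and 13504683 reads labelled WT, and has the largest counting error. Shox2 itself had normalized counts of 201, 548 and 373 in libraries labelled Shox2-/-, against 89.6, 83.4 and 31.4 in libraries labelled WT (log2 change 2.46, SE 0.50, adjusted p = 0.201 in limma). A log2 change is the mean of log2(normalized count + 1) labelled Shox2-/- minus that labelled WT, and limma is a linear model test fitted across all genes. The targeted gene was therefore higher under the label Shox2-/-. Every direction below rests on the labels: values under Shox2-/- or under WT are those of the libraries so labelled, in the order of libraries 1, 2 and 3. Library 3 labelled WT stood apart in its group, with 5.12% of all genes more than 2-fold above the mean of the other two, and values without it are given for the members it moved most. Alcam, whose protein was used for the sort, had 4176, 5312 and 4304 under Shox2-/-, against 6591, 6526 and 5841 under WT. No gene of the 17034 tested passed an adjusted p of 0.05 (0%). The lowest adjusted p of any gene was 0.0954, and the numbers of genes under an unadjusted p of 0.05 were 1232 lower (7.23%) and 1179 higher (6.92%) under Shox2-/-.

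Collagen chain genes as a whole took a smaller share of the transcripts in the libraries labelled Shox2-/-. They held 0.857%, 0.952% and 1.36% of all normalized counts in libraries 1, 2 and 3 labelled Shox2-/-, against 1.81%, 1.75% and 2.92% in libraries 1, 2 and 3 labelled WT. Every library labelled Shox2-/- lay below every library labelled WT, with means of 1.06% ± 0.267 labelled Shox2-/- and 2.16% ± 0.660 labelled WT (SD, n = 3 each). In such sorted bulk samples, fewer cells of a collagen-making type and less collagen RNA per cell cannot be told apart. Library 3 labelled WT was the highest of all, and without it or any other single library the mean share labelled Shox2-/- was 0.419 to 0.593 of the mean labelled WT, against 0.489 with all libraries.

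Most of the difference lay in the fibrillar class, which held most of the collagen counts in every library. The summed shares of the basement membrane class overlapped between groups. Fibrillar chains took 0.648%, 0.741% and 1.05% of counts under Shox2-/-, against 1.49%, 1.45% and 2.43% under WT. Type IV chains took 0.119%, 0.130% and 0.183% under Shox2-/-, against 0.157%, 0.1498% and 0.183% under WT. These groups overlapped, since the highest type IV shares of both groups were equal to this precision. Summed fibrillar over summed type IV counts thus stood at 5.47, 5.70 and 5.75 under Shox2-/-, against 9.54, 9.70 and 13.3 under WT. Without Col3a1, the most abundant member, the same ratio was 1.52, 2.20 and 1.55 under Shox2-/-, against 3.22, 3.29 and 5.50 under WT. Both ratios separated the groups, and they are given as a description with no test. Fibril-associated chains took 0.034%, 0.020% and 0.037% under Shox2-/-, against 0.043%, 0.041% and 0.105% under WT. The remaining types took 0.057%, 0.060% and 0.088% under Shox2-/-, against 0.113%, 0.109% and 0.207% under WT. Relative to its own level and with all libraries, the fibrillar class did not stand out from these. The mean share under WT over that under Shox2-/- was 2.20 for fibrillar, 2.07 for fibril-associated, 2.11 for other types and 1.13 for type IV. Library 3 labelled WT weighs on these ratios, most for fibril-associated chains, at 0.105% against 0.043% and 0.041%. The closeness of the fibrillar, fibril-associated and other ratios depends on that library.

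**Figure D1:**
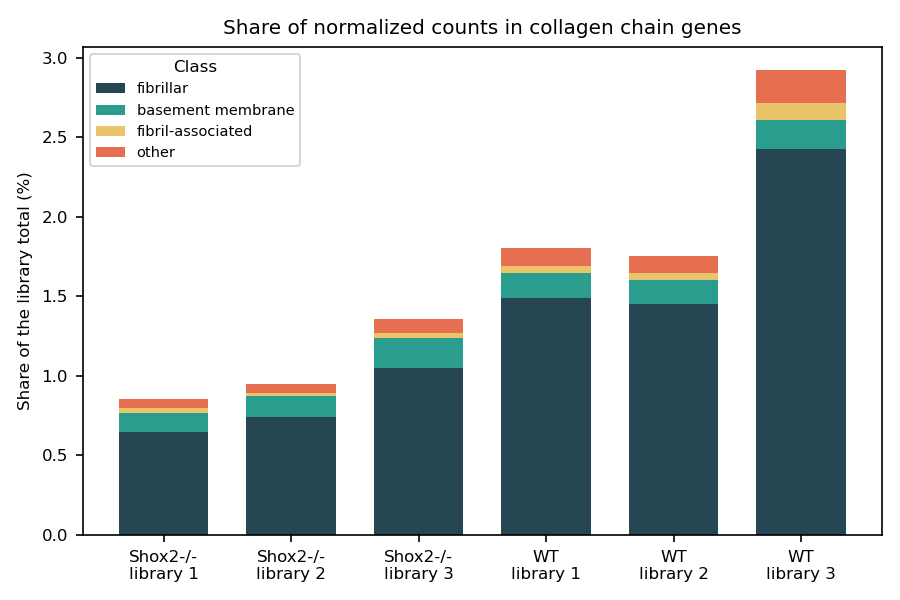
Stacked bars give the share of all normalized counts, in percent, taken by the 4 classes of collagen chain genes in each library, with libraries labelled Shox2-/- on the left and libraries labelled WT on the right. The bars labelled Shox2-/- reach 0.857% to 1.36% and those labelled WT 1.75% to 2.92%. Most of the difference lies in the fibrillar segment, the largest in every library.

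Gene by gene, 36 of the 38 tested members had a lower mean log2 level under Shox2-/- and 2 a higher one, where 48.2% of all genes tested were lower. Counting the members that were not tested, 41 of 44 were lower and 3 higher. The median log2 change was -0.63 over the 38 members and 0.01 over all genes. An unadjusted p under 0.05 was reached by 13 members lower under Shox2-/- and 0 higher, where the background shares were 7.23% lower and 6.92% higher. In 17 members all libraries labelled Shox2-/- lay below all libraries labelled WT, an arrangement found in 10.8% of all genes. The opposite arrangement held for 0 members and for 12.8% of all genes. After Benjamini-Hochberg adjustment in limma over all genes, 0 of the 38 passed 0.05, with adjusted p from 0.183 for Col1a1 to 0.974 for Col4a1. No member entered the test through the WT libraries alone. Of the 38, 37 had at least 10 in all 6 libraries, and Col15a1 had it in 2 libraries labelled Shox2-/- and 3 labelled WT.

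**Figure D2:**
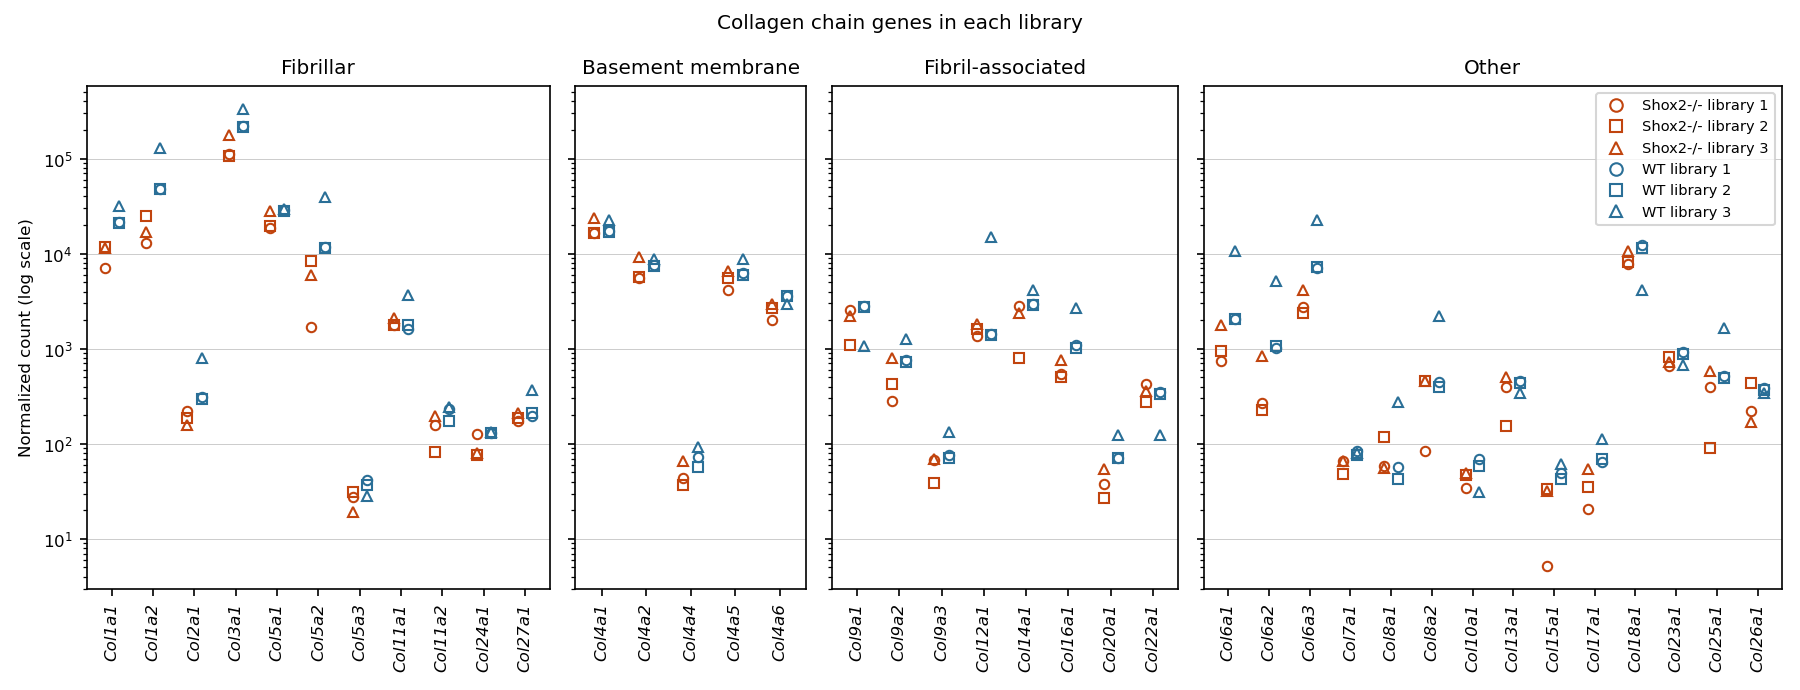
Each point is the normalized count, on a log axis, of 1 tested collagen chain gene in 1 library, in 4 panels by class, with libraries labelled Shox2-/- left of libraries labelled WT for each gene. Libraries 1 and 2 labelled WT nearly coincide, library 3 labelled WT is the highest point for 26 of the 38 genes, and Col3a1 stands above all others at 106540 to 333969.

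All 11 fibrillar genes had lower mean log2 levels under Shox2-/-, with a median change of -0.65 and a range of -1.99 to -0.21. The unadjusted p was under 0.05 for 5 of them (7.23% of all genes), and groups did not overlap for 6 (10.8% of all genes). Col1a1 and Col1a2 encode the chains of type I collagen, the main tension-bearing fibril of most connective tissue. Col1a1 had 7028, 11792 and 11449.5 normalized counts in libraries labelled Shox2-/-, against 21616, 21207 and 32094 in libraries labelled WT. No library labelled Shox2-/- reached the lowest one labelled WT, and the log2 change was -1.32 (SE 0.25, adjusted p = 0.183 in limma). Col1a2 had 12910, 24814 and 17051 under Shox2-/-, against 48014, 47685 and 129358 under WT (log2 change -1.92, SE 0.42, adjusted p = 0.208 in limma). Again the groups did not overlap, and library 3 labelled WT held 2.70 times the mean of the other two labelled WT.

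Col3a1 encodes the type III chain, which forms thin fibrils together with type I in vessels and other stretchable tissues. It had 111600, 106540 and 177188 normalized counts under Shox2-/-, against 221716, 217111 and 333969 under WT. Each library labelled Shox2-/- was below each labelled WT, with a log2 change of -0.98 (SE 0.27, adjusted p = 0.252 in limma). Despite this, its part of the summed collagen counts was alike, at 54.6%, 47.8% and 56.5% under Shox2-/- and 54.8%, 54.8% and 48.7% under WT. Col1a2 made up 6.32%, 11.1% and 5.43% of the collagen sum under Shox2-/-, against 11.9%, 12.04% and 18.9% under WT. Its groups did not overlap on this measure either.

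Types V and XI are minor chains that start fibrils and limit their width. Col5a2 had 1701, 8399 and 5991 normalized counts under Shox2-/-, against 11768, 11589 and 39684 under WT (log2 change -1.99, SE 0.68, adjusted p = 0.293 in limma). Its spread was wide at both ends, since library 1 labelled Shox2-/- and library 3 labelled WT lay far from the rest of their groups. Its partner Col5a1 had 18841, 19708 and 28426 under Shox2-/-, against 28911, 28158 and 29792 under WT (log2 change -0.40, SE 0.17). Library 3 labelled Shox2-/- lay within the WT range for Col5a1. Col2a1, the chain of the cartilage fibril, was low, with 221, 187 and 159 under Shox2-/- and 310, 297 and 798 under WT (log2 change -1.16, SE 0.38, adjusted p = 0.287 in limma). Its groups did not overlap. Col11a1, which pairs with type II in cartilage and also occurs elsewhere, had 1787, 1789 and 2104 under Shox2-/-, against 1622, 1758 and 3634 under WT. These overlapped, and the log2 change of -0.21 turned to 0.16 when library 3 labelled WT was left out. Log2 changes of the remaining fibrillar genes were -0.65 for Col11a2, -0.51 for Col24a1, -0.44 for Col5a3 and -0.39 for Col27a1, and of these Col24a1 alone had groups that did not overlap.

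Among the type IV genes, 5 of 6 were tested, and their changes were small, with a median of -0.37 and a range of -0.62 to -0.02. The unadjusted p was under 0.05 for 1, Col4a6, which was also the 1 whose groups did not overlap, beside 7.23% and 10.8% of all genes. Col4a1 and Col4a2 encode the chains of the network found in nearly all basement membranes. Col4a1 had 16417, 16478 and 23524 normalized counts under Shox2-/-, against 17512, 16840 and 22350 under WT. The highest library of all was labelled Shox2-/-, and the log2 change was -0.02 with a 95% interval of -0.45 to 0.41. Col4a2 had 5607, 5722 and 9203 under Shox2-/-, against 7650, 7384 and 8688 under WT (log2 change -0.24, 95% interval -0.71 to 0.22). In both genes library 3 labelled Shox2-/- was above every library labelled WT, and these intervals hold decreases as well as increases of moderate size. As a result Col4a1 made up 8.03%, 7.40% and 7.50% of the collagen sum under Shox2-/-, against 4.33%, 4.25% and 3.26% under WT.

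Col4a5 and Col4a6 form another type IV network, typical of smooth muscle and some epithelia. Col4a6 had 2017, 2663 and 2932 under Shox2-/-, against 3610, 3579 and 2983 under WT (log2 change -0.43, SE 0.16, adjusted p = 0.309 in limma). Library 3 labelled Shox2-/- lay just under library 3 labelled WT. Col4a5 had 4170, 5562 and 6545 under Shox2-/-, against 6232, 5969 and 8791 under WT, with overlap. Col4a3 and Col4a4, chains of the kidney filter's basement membrane, were the lowest of the type IV genes. Col4a4 was at 36.7 to 65.9 under Shox2-/- and 57.4 to 92.6 under WT, with overlap (log2 change -0.62, SE 0.31, adjusted p = 0.403 in limma). Col4a3, not tested, was near the limit of measurement, at 5.93 to 10.7 under Shox2-/- and 5.21 to 18.1 under WT.

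Leaving out library 3 labelled WT moved the type IV median to -0.19, and left it at -0.59 for fibrillar, -0.65 for fibril-associated and -0.63 for other types. Among all 38 members, 33 were then lower and 5 higher under Shox2-/-, and 11 were lower at an unadjusted p under 0.05, where 7.10% of all genes were. The log2 change was then -1.12 for Col1a1, -1.44 for Col1a2, -0.78 for Col3a1, -1.41 for Col5a2, -0.69 for Col2a1, -0.84 for Col16a1 and -0.11 for Col27a1.

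**Figure D3:**
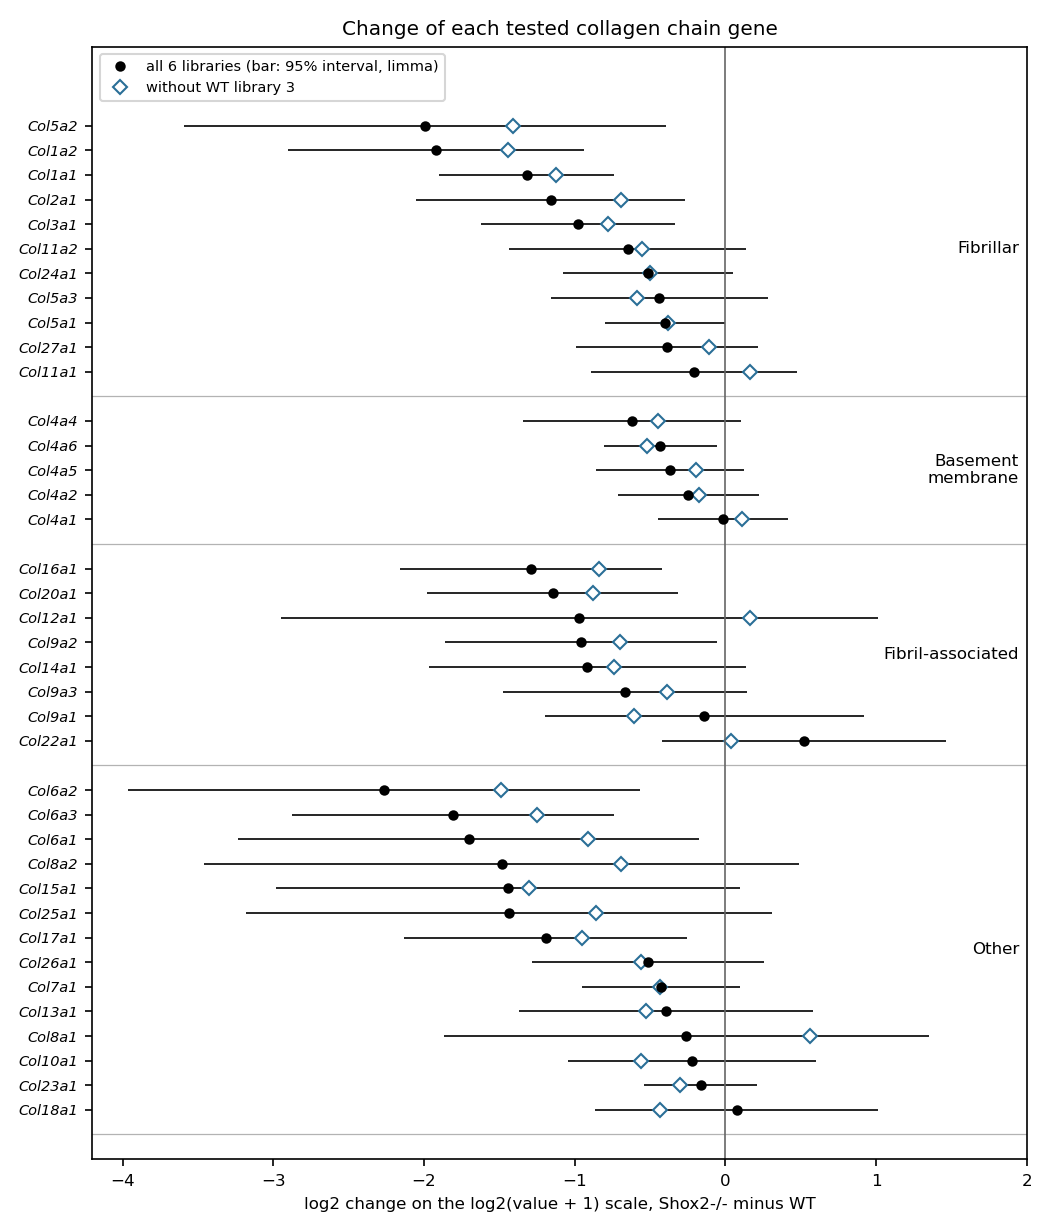
Black points are log2 changes, Shox2-/- minus WT, of the 38 tested genes on the log2(value + 1) scale, with 95% intervals from limma, grouped by class and ordered by size. Open diamonds give the change without library 3 labelled WT. The fibrillar points lie between -1.99 and -0.21, the type IV points between -0.62 and -0.02.

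Of the 9 fibril-associated genes 8 were tested, 7 lower and 1 higher under Shox2-/-, with a median change of -0.94 and a range of -1.29 to 0.52. At an unadjusted p under 0.05, 3 of 8 were lower, where 7.23% of all genes were, and groups did not overlap in 4, where 10.8% of all genes were apart in that direction. Col16a1, a fibril-associated chain made by fibroblasts and smooth muscle, had 536, 505 and 753 under Shox2-/-, against 1099, 1012 and 2687 under WT (log2 change -1.29, SE 0.37, adjusted p = 0.254 in limma). No libraries overlapped. Col20a1 had 38.1, 26.8 and 54.8 under Shox2-/-, against 71.4, 71.0 and 125 under WT (log2 change -1.15, SE 0.36, adjusted p = 0.278 in limma). Its groups were apart too, at low counts.

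Col12a1 and Col14a1 bind the surface of type I fibrils. Col12a1 had 1353, 1619 and 1814 under Shox2-/-, against 1442, 1389 and 14886 under WT. The third of these WT values was 10.5 times the mean of the other two, and without that library the log2 change of -0.97 (SE 0.85) became 0.16. Col14a1 had 2791, 795 and 2390 under Shox2-/-, against 2948, 2883 and 4195 under WT (log2 change -0.92, SE 0.45). Here library 2 labelled Shox2-/- stood apart on the low side, the groups did not overlap, and without that library the change was -0.35. The type IX chains decorate type II fibrils in cartilage. Col9a1 had 2533, 1085 and 2223 under Shox2-/-, against 2810, 2752 and 1058 under WT, a range shared by both groups. Its log2 change was -0.14, and leaving out a single library gave -0.60 to 0.24. Col9a2 had 284, 426 and 791 under Shox2-/-, against 770, 718 and 1273 under WT (log2 change -0.96, SE 0.38, adjusted p = 0.335 in limma). Col9a3 had a log2 change of -0.66 with groups apart. Col22a1, known from the junction of muscle and tendon, was the 1 tested member of its class with a higher mean. It had 431, 277 and 363 under Shox2-/-, against 350, 333 and 125 under WT (log2 change 0.52, SE 0.40, adjusted p = 0.571 in limma). Library 3 labelled WT was the low one, and without it the change was 0.04. Col19a1, not tested, was at 1.79 to 6.67 under Shox2-/- and at 4.98, 3.91 and 92.6 under WT.

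Of the remaining 18 genes 14 were tested, 13 lower and 1 higher, with a median of -0.85 and a range of -2.27 to 0.08. At an unadjusted p under 0.05 in limma, 4 of 14 were lower, where 7.23% of all genes were. Groups did not overlap in 6, all lower under Shox2-/-, beside 10.8% of all genes. With all libraries, type VI collagen, whose beaded filaments connect cells with the surrounding matrix, showed the largest changes in this class. Col6a1 had 744, 958 and 1773 under Shox2-/-, against 2032, 2032 and 10575 under WT (log2 change -1.70, SE 0.65, adjusted p = 0.321 in limma). Col6a2 had 270, 225 and 833 under Shox2-/-, against 1016, 1068 and 5221 under WT (log2 change -2.27, SE 0.73, adjusted p = 0.286 in limma). Col6a3 had 2777, 2371 and 4159 under Shox2-/-, against 7037, 7315 and 22781 under WT (log2 change -1.81, SE 0.46, adjusted p = 0.231 in limma). The 3 genes shared a pattern in which library 3 was the highest of each group and the groups did not overlap. Library 3 labelled WT exceeded the mean of the other two labelled WT 5.21 times for Col6a1, 5.01 times for Col6a2 and 3.17 times for Col6a3. Without it the log2 change was -0.91 for Col6a1, -1.49 for Col6a2 and -1.25 for Col6a3. Col15a1 and Col17a1 of the same class were then at -1.30 and -0.95. The later type VI genes Col6a4, Col6a5 and Col6a6 were barely present, and Col6a5 was at 1.73 to 2.22 under Shox2-/- and 5.87 to 8.64 under WT.

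Short-chain collagens build open lattices, those of type VIII in vessel walls and type X in maturing cartilage. Col8a2 had 84.8, 453 and 460 under Shox2-/-, against 446, 400 and 2194 under WT. Except for library 1 labelled Shox2-/- and library 3 labelled WT, its levels were close together (log2 change -1.48, SE 0.84). The change was -0.68 without library 1 labelled Shox2-/- and -0.69 without library 3 labelled WT. Col8a1 had 58.8, 118 and 56.3 under Shox2-/-, against 56.4, 43.0 and 275 under WT, and its log2 change of -0.26 became 0.56 without library 3 labelled WT. Col10a1 was at 34.6 to 48.9 under Shox2-/- and 31.4 to 69.7 under WT, with log2 changes of -0.22 and, without library 3 labelled WT, -0.56.

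The transmembrane collagens sit in the plasma membrane. Col17a1, a hemidesmosome component of epithelia, had 20.8, 34.9 and 54.8 under Shox2-/-, against 64.7, 69.1 and 111 under WT (log2 change -1.19, SE 0.40, adjusted p = 0.289 in limma). Groups were apart, at low counts. Col25a1, a membrane collagen of neurons, had 394, 91.2 and 587 under Shox2-/-, against 513, 491 and 1671 under WT, and overlapped (log2 change -1.43, SE 0.75). The change was -0.64 without library 2 labelled Shox2-/- and -0.86 without library 3 labelled WT. The log2 changes of Col13a1 and Col23a1 were -0.39 and -0.16, also with overlap.

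Col15a1 and Col18a1 are multiplexins of basement membrane zones, and the end of the Col18a1 protein is released as endostatin. Col18a1 had 7739, 8169 and 10718 under Shox2-/-, against 12279, 11427 and 4122 under WT. Libraries 1 and 2 labelled WT exceeded all libraries labelled Shox2-/-, whereas library 3 labelled WT was the lowest of all. The log2 change was accordingly 0.08 (SE 0.40) with all libraries and -0.43 without library 3 labelled WT. Col15a1 had 5.19, 33.1 and 31.9 under Shox2-/-, against 49.8, 42.4 and 62.0 under WT (log2 change -1.44, SE 0.66). Its groups did not overlap, although the lowest value rested on 3 reads. Col7a1, the anchoring fibril of skin, had 65.7, 48.3 and 65.9 under Shox2-/-, against 84.7, 76.3 and 80.1 under WT, with groups apart (log2 change -0.43, SE 0.22). Col26a1 had a log2 change of -0.52 with overlap.

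Levels of different genes can be compared once divided by gene length, here the merged exons in kilobases. Under Shox2-/- Col3a1 led with 13425 ± 4015 normalized counts per kilobase (SD, n = 3), followed by Col5a1 with 2630 ± 624, Col4a1 with 2520 ± 547, Col1a1 with 1537 ± 405 and Col1a2 with 1469 ± 486. Under WT Col3a1 led with 26243 ± 6742 (SD, n = 3), followed by Col1a2 with 6037 ± 3787, Col1a1 with 3805 ± 940, Col5a1 with 3410 ± 96.3 and Col4a1 with 2532 ± 403. In both groups Col3a1 stood above the next gene by more than the spread. The neighbours Col5a1 and Col4a1, and Col1a1 and Col1a2, did not differ beyond their spread under Shox2-/-, nor did Col1a2, Col1a1 and Col5a1 under WT. By their means, the type I chains ranked below Col5a1 and Col4a1 under Shox2-/- and above both under WT. Without library 3 labelled WT, however, Col1a2 stood at 3851, Col5a1 at 3361, Col1a1 at 3263 and Col4a1 at 2301 under WT, so that Col1a1 then ranked below Col5a1. With the length of the transcript that has the longest coding sequence, Col1a2 came to 3414 under Shox2-/- and 14028 under WT, so that its rank under Shox2-/- depends on the length used.

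Paired chains were compared as ratios of normalized counts, 8 of them between chains of 1 collagen type and 1 between the type III and type I chains Col3a1 and Col1a1. The 9 ratios were tested by exact two-sided permutation of the libraries, where 3 against 3 cannot give a p below 0.1. Col1a1 over Col1a2 was 0.544, 0.475 and 0.672 under Shox2-/-, against 0.450, 0.445 and 0.248 under WT (log2 difference 0.60, exact p = 0.1, 0.45 after Benjamini-Hochberg adjustment over the 9 ratios). Every library labelled Shox2-/- lay above every library labelled WT. Col6a1 over Col6a2 was 2.75, 4.24 and 2.13 under Shox2-/-, against 1.999, 1.901 and 2.025 under WT (log2 difference 0.56, exact p = 0.1, adjusted 0.45), also with groups apart. Col5a1 over Col5a2 was 11.1, 2.35 and 4.74 under Shox2-/-, against 2.46, 2.43 and 0.751 under WT (log2 difference 1.59, exact p = 0.3, adjusted 0.6), with overlap. Its range was the widest of the ratios. Leaving out a single library gave log2 differences of 0.32 to 0.75 for Col1a1 over Col1a2. The same gave 0.29 to 0.79 for Col6a1 over Col6a2 and 1.02 to 2.14 for Col5a1 over Col5a2. Col4a1 over Col4a2 varied least, at 2.93, 2.88 and 2.56 under Shox2-/- and 2.29, 2.28 and 2.57 under WT (log2 difference 0.23, exact p = 0.2, adjusted 0.6). The log2 differences of Col3a1 over Col1a1, Col11a1 over Col11a2 and Col4a3 over Col4a4 were 0.34, 0.44 and 0.38. Those of Col4a5 over Col4a6 and Col6a3 over Col6a1 were 0.06 and -0.10, and all 5 had exact p of 0.4 or more.

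**Figure D4:**
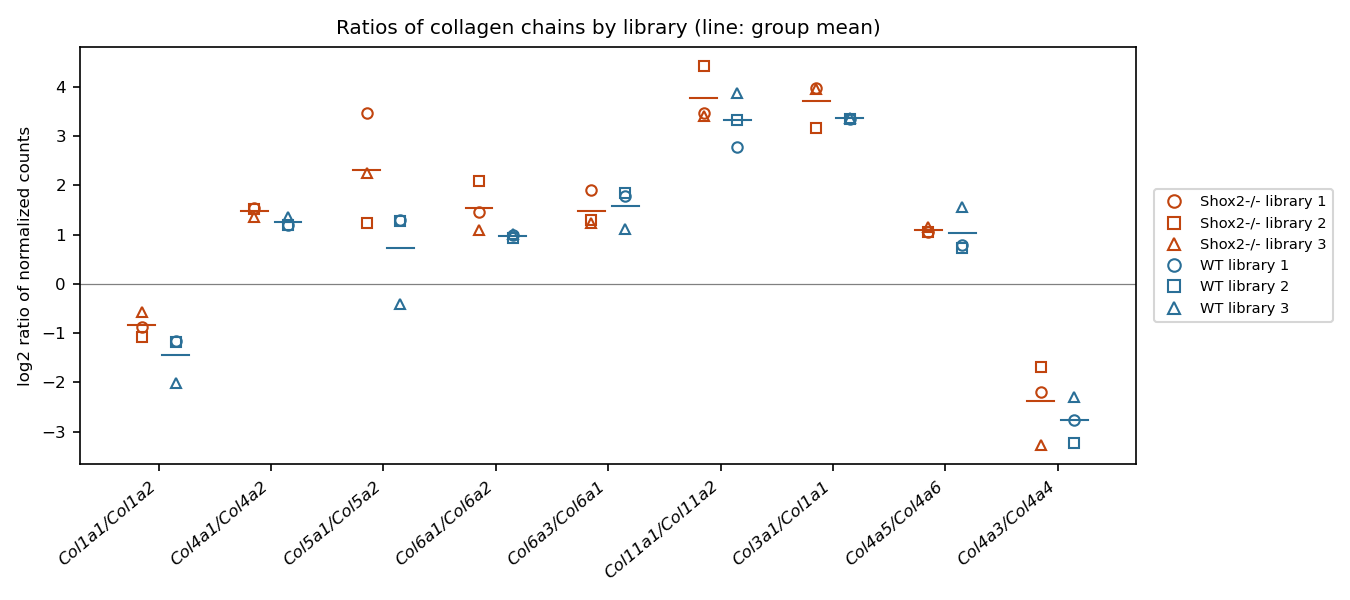
Log2 ratios of normalized counts of paired collagen chains are shown per library, libraries labelled Shox2-/- left of libraries labelled WT, with a line at each group mean. The groups are apart for Col1a1 over Col1a2 and for Col6a1 over Col6a2, and overlap for the other ratios.

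Several of these partners are neighbours in the genome (GRCm38 coordinates of GENCODE M21). Col4a1 (chr8:11198423-11312826, minus strand) and Col4a2 (chr8:11312805-11449287, plus strand) are divergent and overlap by 22 bases. Col4a6 (chrX:141165403-141474076, minus strand) and Col4a5 (chrX:141475385-141689234, plus strand) are also divergent, 1308 bases apart, and their log2 changes were -0.43 and -0.37. Col3a1 (chr1:45311538-45349706, plus strand) and Col5a2 (chr1:45374321-45503282, minus strand) face each other across 24614 bases, with log2 changes of -0.98 and -1.99. Col6a2 (chr10:76595762-76623630, minus strand) and Col6a1 (chr10:76708792-76726168, minus strand) lie in 1 direction, 85161 bases apart. Col1a1 (chr11:94936224-94953042, plus strand) and Col1a2 (chr6:4504814-4541544, plus strand), whose products share a molecule, lie on different chromosomes. No source used here says whether strand was used in counting, so reads in overlapping exons cannot be assigned for certain. Exon bases shared with any other gene came to at most 6.07% of a member, Col9a3, and 31 of the 44 members shared none. Each value is summed over a whole gene, so it says nothing of single exons or introns.

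Individual libraries had a marked part in the values. Library 3 labelled WT was the highest of the 6 for 26 of 38 members, where it was the highest for 25.5% of all genes tested. It exceeded the mean of the other two labelled WT more than 2-fold for 12 of 38 members, beside the 5.12% of all genes given above. Of these 12, 4 were fibrillar, 0 type IV, 2 fibril-associated and 6 of other types. The lowest library was one labelled Shox2-/- for 32 of 38 members, library 1 for 16 and library 2 for 13, where all genes had their lowest value there in 22.95% and 16.87%. Library 3 labelled Shox2-/- and libraries 1 and 2 labelled WT share Diff9 in their titles, a mark whose meaning is not stated. Set against those 2 WT libraries alone, library 3 labelled Shox2-/- was lower for 25 of 38 members, with a median log2 difference of -0.28, where 46.9% of all genes were lower. The fibrillar median was -0.71 with 9 of 11 lower, and the type IV median was 0.10 with 1 of 5 lower. In that comparison Col1a1 differed by -0.90, Col1a2 by -1.49, Col3a1 by -0.31 and Col6a3 by -0.79 on the log2 scale. It has 1 library on its side labelled Shox2-/- and no test.

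Markers of cell types known to make collagen moved partly with these values. The 11 fibroblast and mesenchyme markers summed to 59694 to 98677 under Shox2-/-, against 95297 to 110963 under WT, with 6 of 10 tested markers lower and none at 0. Decorin (Dcn), a proteoglycan bound to collagen fibrils, had 512, 1451 and 1461 under Shox2-/-, against 1711, 1690 and 13277 under WT. Thy1, a fibroblast surface marker, was at 2.22 to 6.92 under Shox2-/- and at 4.98, 5.21 and 50.3 under WT, with overlap at low counts. Both were highest in library 3 labelled WT, as were most fibrillar and type VI genes. Pdgfra of the same list was lowest in that library, with 14844, 11397 and 11616 under Shox2-/-, against 14485, 14659 and 8389 under WT. Its groups overlapped. Twist1 had 4443, 1711 and 1734 under Shox2-/-, against 1256, 1332 and 1008 under WT, and was higher in every library labelled Shox2-/-. Epicardial markers summed to 1389 to 2818 under Shox2-/- and 2647 to 4073 under WT. Smooth muscle markers summed to 39699 to 49632 under Shox2-/- and 43127 to 49841 under WT, with 3 of 5 lower. Acta2 made up most of this sum, and its groups overlapped. Myh11 had 24.2, 42.9 and 31.1 under Shox2-/-, against 83.0, 79.5 and 137 under WT. Cnn1 had 142, 164 and 149 under Shox2-/-, against 304, 267 and 210 under WT. Both Myh11 and Cnn1 were lower in every library labelled Shox2-/-. Parietal endoderm markers, from a cell type rich in type IV collagen, summed to 26849 to 29371 under Shox2-/- and 28655 to 29188 under WT. The laminin chain genes Lama1, Lamb1 and Lamc1 made up most of this sum, and Sox17, Sox7 and Thbd added little to it. Endothelial markers summed to 7924 to 11970 under Shox2-/- and 3436 to 13579 under WT, endoderm markers to 121 to 2078 under Shox2-/- and 2591 to 7697 under WT, and epithelial markers to 2035 to 5751 under Shox2-/- and 3267 to 4968 under WT. The 6 cartilage markers summed to 1957 to 3369 under Shox2-/-, against 1232 to 1472 under WT, and Hapln1 made up most of this sum. Of the 6, 4 were tested, and 1 of these was lower. Acan had 1.73, 4.47 and 3.70 under Shox2-/-, against 13.3, 8.47 and 12.6 under WT. Comp had 3.46, 4.47 and 5.18 under Shox2-/-, against 8.30, 7.17 and 10.99 under WT. Both were lower in every library labelled Shox2-/-, but at low counts that missed the threshold for testing. Matn3 had 89.97, 117.09 and 97.77 under Shox2-/-, against 68.05, 80.82 and 73.01 under WT. Matn3 and Hapln1 were higher in every library labelled Shox2-/-. Sox9 had 346.02, 160.89 and 195.54 under Shox2-/-, against 87.97, 119.92 and 184.49 under WT, with overlap. Bone markers were at 188 to 604 under Shox2-/- and 362 to 382 under WT. Cardiomyocyte markers summed to 12964 to 34949 under Shox2-/- and 10186 to 26828 under WT, and sinoatrial markers to 5338 to 5457 under Shox2-/- and 4549 to 8460 under WT. Of the tested markers, 4 of 5 epicardial, 6 of 7 parietal endoderm, 4 of 4 endoderm and 5 of 5 epithelial ones were lower under Shox2-/-. The counts were 2 of 4 for endothelial, 2 of 3 for bone, 5 of 8 for cardiomyocyte and 3 of 8 for sinoatrial markers. Among all genes tested, 48.2% were lower. No marker of these lists was at 0 in all libraries. The part of these cell types, or of remaining feeder fibroblasts, in the collagen values was not tested.

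The genes that make, process and bind collagen were read from 4 lists. Of 22 genes for folding and modification inside the cell, 20 were lower and 2 higher under Shox2-/-, with a median log2 change of -0.36. None of the 22 passed the adjusted threshold, 6 were lower and 1 higher at an unadjusted p under 0.05, and the groups were apart in 12 lower and 1 higher. Over all genes the shares were 7.23% lower and 6.92% higher at that p, and 10.8% lower and 12.8% higher with groups apart. Fkbp10, a prolyl isomerase of the endoplasmic reticulum that assists procollagen folding, had 2306, 2447 and 2886 under Shox2-/-, against 4453, 4195 and 3939 under WT (log2 change -0.72, SE 0.12, adjusted p = 0.160 in limma). Its groups were well apart and, unlike the type I chains, its level in library 3 labelled WT was the lowest of that group. P3h3, of the prolyl 3-hydroxylase family, had 414, 550 and 722 under Shox2-/-, against 1085, 980 and 1247 under WT (log2 change -1.004, SE 0.21). P4ha2, a subunit of prolyl 4-hydroxylase, and Sparc, a collagen-binding secreted protein, had log2 changes of -0.75 and -0.73.

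Outside the cell, 9 of 12 genes for propeptide removal and cross-linking were lower and 3 higher, with a median of -0.30. The count lower at an unadjusted p under 0.05 was 1 of 12, near the 7.23% of all genes. That gene was Loxl4, a lysyl oxidase family member, with a log2 change of -1.33 (SE 0.45). Lox, the founding cross-linking enzyme, had 76.1, 403 and 365 under Shox2-/-, against 500, 496 and 10142 under WT. Its groups did not overlap, but library 3 labelled WT was far above all others (log2 change -2.60, SE 1.22, and -1.15 without that library). Loxl3 and Tll1, a procollagen-trimming protease, had log2 changes of -0.66 and -0.73, with overlap. Without library 3 labelled WT the changes were -0.80 for Loxl4, -0.41 for Loxl3 and -0.35 for Tll1.

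Among the collagen receptors was a gene at 0.0954, the lowest adjusted p of any gene, which it shared with others. Itga1, the integrin chain that binds type IV and type I collagen, had 3147, 2292 and 2477 normalized counts under Shox2-/-, against 1157, 1154 and 1003 under WT. Its lowest library labelled Shox2-/- was well above its highest labelled WT (log2 change 1.25, SE 0.14, adjusted p = 0.0954 in limma). Across the 9 receptors tested of 10 listed, 7 were lower and 2 higher, with a median of -0.44. Mrc2, an endocytic receptor that takes up collagen fragments, had a log2 change of -0.44 (SE 0.16), Itga10 of -0.50 and Ddr1, a collagen-sensing tyrosine kinase, of -0.26. The list for collagen breakdown holds both proteases and protease inhibitors. Of its 9 genes tested of 12 listed, 8 were lower and 1 higher, with a median of -0.44. At an unadjusted p under 0.05, 3 of 9 were lower, beside 7.23% of all genes. These 3 were the protease gene Mmp16 and the inhibitor genes Timp1 and Timp2. Mmp16, a membrane-bound metalloprotease, had 682, 787 and 791 under Shox2-/-, against 1339, 1472 and 2830 under WT (log2 change -1.24, SE 0.27, adjusted p = 0.208 in limma). Its groups were apart. The protease inhibitors Timp1 and Timp2 had log2 changes of -1.19 and -0.42, and the gelatinase Mmp2 of -0.44. Without library 3 labelled WT they were -0.78 for Timp1, -0.25 for Timp2 and -0.16 for Mmp2. None of the receptor, cross-linking or breakdown genes passed the adjusted threshold in limma.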

How the data were processed

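RNA was sequenced on an Illumina HiSeq system from 3 libraries of sorted cells per labelled genotype. The submitters' processing notes name BWA, HTSeq, CASAVA 1.8.2, DESeq2 1.14.0 and build mm10, without saying what each was used for. The deposited values are gene counts divided by a size factor per library, as worked out from the values: within each library all values are multiples of a constant, and dividing by it left 100% of them within 0.1 of a whole read. The main test was chosen for normalized values. Of the planned models on recovered reads, voom was run and the others were not. The members and gene lists were chosen with earlier results of these data known.

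The 17034 genes that reached 10 in 3 libraries or more were analysed as log2(value + 1) with R 4.3.3 and limma 3.58.1 (group as the 1 term, moderated with a trend in the mean, two-sided test, threshold 0.05 after Benjamini-Hochberg adjustment over all tested genes). On this scale changes of low genes come out too small. The procedure was tested on simulated data, in which the spread between libraries was capped below that of the tested members. That test therefore does not show how often changes such as those of the members would be called. Lengths and positions came from GENCODE M21. Named were Shox2, Alcam, every tested member, and up to 4 genes of each pathway list with the lowest p. Single markers of cell types, Shox2 aside, and members not tested were named after their values were seen. Counting error alone is larger in the 2 shallow libraries. Alternatives varied the pseudocount, filter, scaling, model, Diff9 libraries and libraries left out.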

Additional observations from a re-analysis of the deposited data

How the results depend on the processing

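Of 38 tested members, 28 kept their direction under all 15 alternatives run. Col5a3 and Col15a1 kept it under the 14 that could fit them, since they lay below the filter of 50. Limma's voom with sample quality weights was run on the recovered reads. The weights were 3.595, 4.224 and 0.206 for libraries 1, 2 and 3 labelled WT, against 0.623, 0.581 and 0.884 under Shox2-/-. The WT side thus rested mostly on libraries 1 and 2, which nearly coincide. In this fit 303 of all genes, 2 collagen genes and 5 collagen pathway genes were called. The 2 were Col1a1 (log2 change -1.11, adjusted p = 0.0213) and Col1a2 (-1.49, adjusted p = 0.0251), and the 5 were Fkbp10, Itga1, Mmp16, Mrc2 and P4ha2. The fibril-associated median became -0.51 there. Changes turned to 0.15 for Col11a1, 0.15 for Col4a1, 0.11 for Col12a1, 0.51 for Col8a1 and -0.34 for Col18a1. The cause was not tested. Without a filter 2 genes were called, none of them a collagen gene.

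Leaving out a single library called 0 to 51 of all genes, 0 collagen genes and 0 to 1 pathway genes. Without library 2 labelled Shox2-/- the count was 51, with Itga1 among them (adjusted p = 0.0409). Members lower at an unadjusted p under 0.05 numbered 9 to 18, while 4.85% to 8.34% of all genes were. Class medians ranged from -0.91 to -0.58 (fibrillar), -0.52 to -0.19 (type IV), -1.11 to -0.65 (fibril-associated) and -1.13 to -0.60 (other). Changes of sign occurred for Col4a1 (-0.19 to 0.11), Col9a1 (-0.60 to 0.24), Col10a1 (-0.56 to 0.0052), Col11a1 (-0.42 to 0.16), Col12a1 (-1.55 to 0.16), Col13a1 (-0.73 to 0.12), Col8a1 (-0.76 to 0.56) and Col18a1 (-0.43 to 0.36), and for the ratios Col6a3 over Col6a1 (-0.34 to 0.029) and Col4a5 over Col4a6 (-0.084 to 0.33). 

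Replicate numbers are in accession order and pair no samples. With a replicate block for the libraries marked Diff9, 0 genes were called, and Col4a1 (0.0058) and Col9a1 (0.16) changed sign. Averaging libraries 1 and 2 labelled WT turned Col9a1 to 0.092, and the mean collagen share labelled Shox2-/- was then 0.449 of that labelled WT. With that average 0 genes were called. The adjusted p in limma was then 0.521 for both Col1a1 and Col1a2, against 0.183 and 0.208 in the main fit. Counting types XV and XVIII with type IV kept the median at -0.37. The planned quasi-likelihood and Wald count tests and TMM scaling were not run. The median change of all genes stayed between -0.069 and 0.046. The shallow libraries limit the precision of the lowest genes.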
